A study of Homo sapiens with 10 samples.

Results

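The genes ANGPT1, HBEGF, VEGFA, VEGFB and TGFB1, which encode growth factors that cells release to act on themselves or their neighbours, were examined in RS4;11 cells, a human B-cell precursor acute lymphoblastic leukemia line with a KMT2A rearrangement. The 5 genes were taken from 63677 Ensembl gene identifiers by symbol. ANGPT1 and HBEGF were selected on their lower counts in the VENins lines, so their difference between the groups is the reason for their choice and is given as a description without a test. VEGFA, VEGFB and TGFB1 were selected by name. The 5 VENins lines had been grown in parallel from RS4;11 cells under rising concentrations of venetoclax (VEN), a BCL-2 inhibitor, and were insensitive to it, and the 5 VENsens lines had been grown alongside with matching amounts of the solvent DMSO. All 10 lines descend from 1 cell line, so they model acquired insensitivity in 1 genetic background. No line was in VEN at harvest, as a wash had taken it out of the VENins cultures, which otherwise grew in its presence. One RNA-Seq library per line was counted, with between 20631907 and 28323643 gene counts in VENsens and between 21145316 and 25394653 in VENins libraries.

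Angiopoietin-1 (ANGPT1) activates the receptor TIE2, encoded by TEK, and is known for stabilising blood vessels. Heparin-binding EGF-like growth factor (HBEGF) is made as a membrane protein that metalloproteases such as ADAM10 and ADAM17 shed from the cell surface, after which it binds EGFR and ERBB4. Its transcription is a well-known response to signalling through the kinase ERK. VEGFA acts through FLT1 and KDR and is induced by hypoxia-inducible factors (HIF), VEGFB binds FLT1 alone among these receptors, and TGFB1 is secreted in a latent form and signals through TGFBR1 and TGFBR2 to SMAD proteins. Leukemic lymphoblasts are known to release several of these factors into the bone marrow, where endothelial and stromal cells respond to them.

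The lines carried the RNA of their labelled cell type. Of 10 pro-B lymphoblast markers 9 had a mean above 1 CPM (counts scaled to a common library size), led by IGLL1, and their summed level was 3424 to 3528 CPM in VENsens and 3334 to 3790 CPM in VENins lines. CD34 had 8 counts over all 10 libraries. Of the 9 tested markers 1 was called, beside 33 of all 16756 tested genes (0.197%). PAX5, a transcription factor of B-cell identity, was lower in every VENins line (584 to 676 CPM) than in every VENsens line (713 to 827 CPM). It had a log2 fold change of -0.31 (SE 0.05) and an adjusted p = 0.0272 in edgeR's quasi-likelihood test. PAX5 was not called without the lines numbered 2, 3 or 5. RAG1 at -0.32 (SE 0.12) was also negative on the log2 scale, whereas CD79B at 0.24 (SE 0.09), IGLL1 at 0.17 (SE 0.06) and VPREB1 at 0.14 (SE 0.05) were positive, and none of these 4 passed. DNTT, a polymerase of lymphoid precursors, was at 27.3 CPM in VENins line 4, at 1.08 to 3.38 CPM in the other VENins lines and at 3.05 to 8.31 CPM in VENsens lines. Its log2 fold change was -0.36 (SE 0.52) over all lines and -1.44 (SE 0.16) without the lines numbered 4, so VENins line 4 stood apart in this marker. All 7 markers of KMT2A-rearranged leukemia were above 1 CPM, led by PROM1. Markers of other cells were partly present.

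None of 6 endothelial markers reached a mean of 1 CPM, with 0 counts of CDH5, ESAM as the most abundant at 0.892 CPM, and a sum of 0.915 to 1.65 CPM in VENsens and 1.22 to 1.5 CPM in VENins lines. PECAM1 was also at 0, which is not read here as a measure of its expression. The 4 T cell markers found and the 6 of monocytes and granulocytes also stayed below 1 CPM, led by CD3E and CD14, with S100A8 at 0. Of 6 stromal markers PDGFRB had a mean of 13.9 and COL1A1 of 2.72 CPM, while DCN and LUM were at 0, and the sum was 16.2 to 18.1 CPM in VENsens and 13.2 to 19.1 CPM in VENins lines. Of 5 megakaryocyte and platelet markers ITGA2B had a mean of 36.3, GP9 of 3.47 and GP1BA of 1.18 CPM, while PF4 and PPBP were at 0, and the sum was 40.9 to 56.1 CPM in VENsens and 28.5 to 47.5 CPM in VENins lines. The log2 fold changes of ITGA2B, a platelet integrin subunit, and GP1BA, a platelet receptor subunit, were -0.48 (SE 0.10) and -0.84 (SE 0.21), with adjusted p = 0.061 and 0.0971 in edgeR's quasi-likelihood test. DESeq2 called ITGA2B with the line number as a term (adjusted p = 0.00241) and not without it (0.0834). In edgeR's quasi-likelihood test ITGA2B also passed with length and GC offsets (adjusted p = 0.0167), without the lines numbered 5 (0.00164, log2 fold change -0.63) or 4 (0.0329) and with no filter on low counts, and its adjusted p reached 0.484 without the lines numbered 2. The part of these markers in the differences between the groups was not tested. The bulk libraries cannot tell fewer expressing cells from less RNA per cell.

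ANGPT1 (ENSG00000154188, reverse strand of chromosome 8, 107249482 to 107498055 in GRCh38) had the fewest counts of the 5 genes. Scaled by the trimmed mean of M-values (TMM), its level was 3.45, 2.18, 2.85, 3.64 and 3.39 CPM in VENsens lines 1 to 5, and 1.13, 0.858, 1.18, 1.96 and 1.22 CPM in VENins lines 1 to 5. Every VENins line was below every VENsens line, with VENins line 4 closest to them. The means were 3.10 ± 0.593 (SD, n = 5) and 1.27 ± 0.413 CPM (SD, n = 5), and the fitted log2 fold change of VENins against VENsens was -1.29 with a standard error (SE) of 0.16, a level 40.8% of that in VENsens lines. These values rest on 530 counts in all, between 21 and 85 per library. The coefficient of variation among lines was 19.1% in VENsens and 32.5% in VENins, compared with 11.8% and 18.8% from counting alone.

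HBEGF (ENSG00000113070, reverse strand of chromosome 5, 140332843 to 140346631) was measured with 430 to 945 counts per library. Its level was 31.6, 34.3, 33.3, 36.4 and 36.2 CPM in VENsens lines 1 to 5, and 20.2, 19.9, 23.1, 25.8 and 22.8 CPM in VENins lines 1 to 5. The groups did not overlap, and VENins line 4 was again the highest of its group. Means were 34.4 ± 2.03 and 22.4 ± 2.42 CPM (SD, n = 5 each). On the log2 scale VENins against VENsens lines stood at -0.62 (SE 0.07), or 64.9% of the VENsens level. Among all 16756 genes tested, 385 (2.3%) were lower and 396 (2.36%) higher in VENins without overlap of the groups, which for ANGPT1 and HBEGF is what they were selected on.

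VEGFA (ENSG00000112715, forward strand of chromosome 6, 43770184 to 43786487) had 2115 to 2700 counts per library. Its level was 108, 106, 86.2, 96.5 and 87.4 CPM in VENsens lines 1 to 5, and 99.4, 106, 99.6, 95.3 and 118 CPM in VENins lines 1 to 5. The groups overlapped, and VENins line 5 was the highest of the 10. VENins against VENsens lines gave a log2 fold change of 0.10 (SE 0.07), and edgeR's quasi-likelihood test gave an adjusted p = 0.526 over all tested genes.

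VEGFB (ENSG00000173511, forward strand of chromosome 11, 64234538 to 64238793) was at 76.1, 63.5, 77.9, 77.1 and 68.1 CPM in VENsens lines 1 to 5, and at 81.1, 85.9, 75.7, 83.1 and 96.1 CPM in VENins lines 1 to 5. Of the 5 VENins lines 4 were above every VENsens line, and the exception was line 3. On the log2 scale the fold change was 0.22 (SE 0.08), with an adjusted p = 0.18 in edgeR's quasi-likelihood test, so VEGFB did not pass the threshold of 0.05. It passed with an adjusted p = 0.0459 when genes with low counts were kept in the table, and adjusted values over the other fits reached 0.621.

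TGFB1 (ENSG00000105329, reverse strand of chromosome 19, 41301587 to 41353911) was at 17.8, 17.2, 14.8, 15.3 and 12.2 CPM in VENsens lines 1 to 5, and at 15.1, 18.2, 16.1, 17.2 and 22.1 CPM in VENins lines 1 to 5. The groups overlapped, with the extremes in VENsens line 5 and VENins line 5. The log2 fold change of 0.20 (SE 0.12) had an adjusted p = 0.416 in edgeR's quasi-likelihood test. Without the lines numbered 5 it was 0.04, that of VEGFA 0.02 and that of VEGFB 0.15. Part of the TGFB1 exons lies opposite exons of HNRNPUL1, and the library kit does not mark the strand, so reads there cannot be assigned to either gene. HNRNPUL1 itself had a log2 fold change of 0.01 (SE 0.05).

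**Figure D1:**
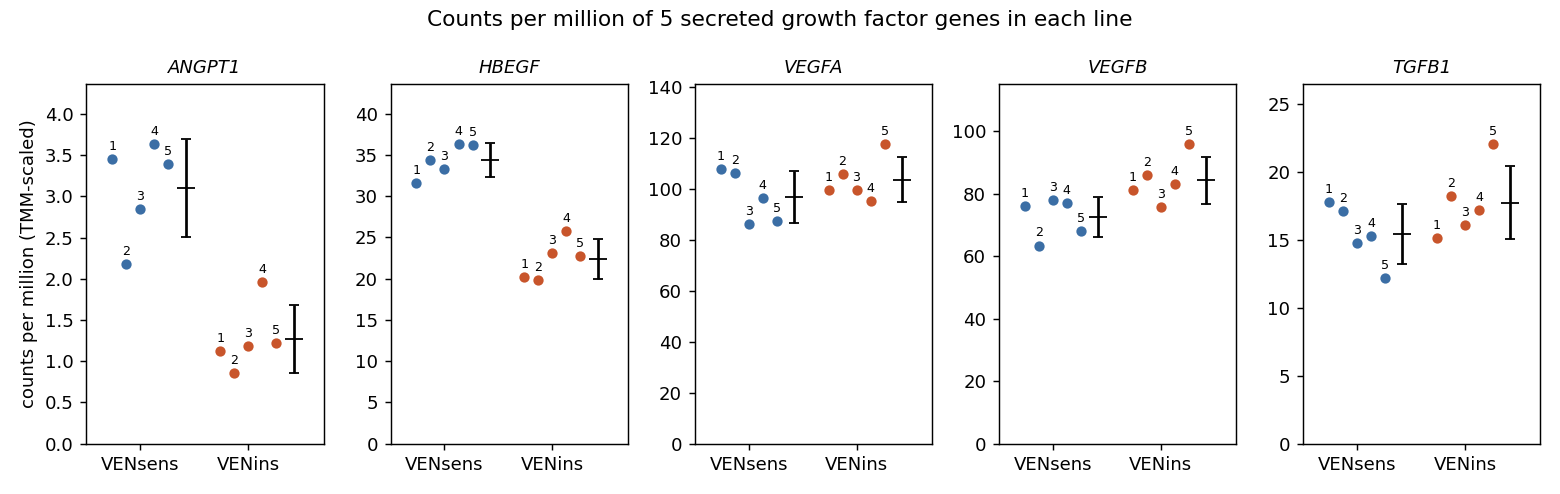
TMM-scaled CPM (vertical axes, from 0) of the 5 genes in each VENsens (blue) and VENins (orange) line, numbered by line, with the mean and SD of each group in black. ANGPT1 and HBEGF were chosen for the separation seen in their panels, while the groups of VEGFA, VEGFB and TGFB1 overlap.

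To order the genes by level, CPM were divided by the length of all annotated exons. VEGFB was the highest in VENsens lines with 46.9 ± 4.15 CPM per kilobase, followed by HBEGF with 11.4 ± 0.672, VEGFA with 6.71 ± 0.702, TGFB1 with 4.77 ± 0.685 and ANGPT1 with 0.435 ± 0.0832 (SD, n = 5 each). In these lines no neighbours in the order overlapped. In VENins lines HBEGF with 7.41 ± 0.801 and VEGFA with 7.17 ± 0.604 CPM per kilobase overlapped, as did VEGFA and TGFB1 with 5.48 ± 0.830 (SD, n = 5 each). VEGFB with 54.6 ± 4.88 CPM per kilobase stayed the highest and ANGPT1 with 0.178 ± 0.0580 the lowest (SD, n = 5 each). The place of VEGFA depended on the length used, since its exons span 14.4 kilobases in all and its longest coding transcript 3.54 kilobases. Per kilobase of the longest coding transcript VEGFA was at 27.4 ± 2.87 in VENsens and 29.3 ± 2.47 in VENins lines, above HBEGF with 14.4 ± 0.850 and 9.37 ± 1.01 (SD, n = 5 each).

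**Figure D2:**
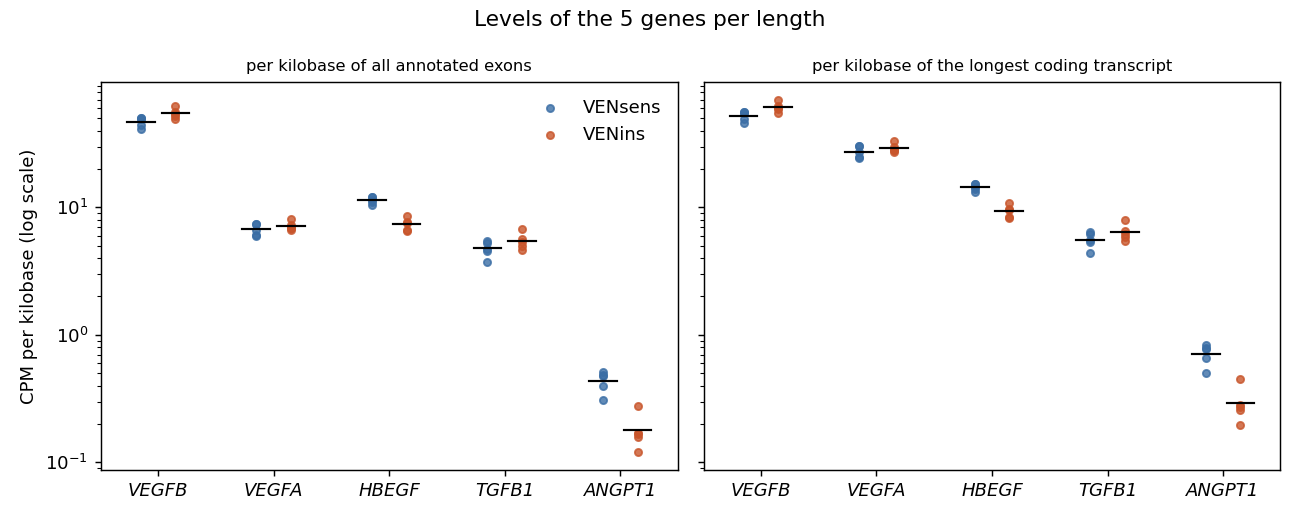
CPM per kilobase (vertical log axis) of the 5 genes in the 5 VENsens (blue) and 5 VENins (orange) lines, with points for lines and bars for group means, divided by the length of all annotated exons (left) or of the longest coding transcript (right). VEGFB is the highest and ANGPT1 the lowest on both scales, and VEGFA lies above HBEGF in all 10 lines on the right but only in VENins lines 1, 2 and 5 on the left.

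Promoter sequences from RefSeq (GRCh38.p14) were available for HBEGF, TGFB1 and VEGFB, 3 of the 5 genes, and those of HBEGF and TGFB1 are shown to compare a gene that was lower in VENins lines with one that did not pass the test. Each holds the 250 bases before the start annotated by RefSeq, read 5′ to 3′ on the strand of the gene, with capitals for the GC box GGGCGG on either strand. HBEGF lies at chr5:140346604-140346853 and TGFB1 at chr19:41353923-41354172, both on the reverse strand. GENCODE, from which the gene positions come, starts HBEGF farther upstream, so 28 bases at the 3′ end of its window lie inside the gene as positioned there, and 0 bases of the TGFB1 window do.
HBEGF: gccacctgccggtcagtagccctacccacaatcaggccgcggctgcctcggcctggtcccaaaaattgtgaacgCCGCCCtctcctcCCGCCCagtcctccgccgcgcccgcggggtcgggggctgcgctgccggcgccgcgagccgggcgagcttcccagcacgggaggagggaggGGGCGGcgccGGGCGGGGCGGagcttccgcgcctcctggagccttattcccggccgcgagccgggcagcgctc
TGFB1: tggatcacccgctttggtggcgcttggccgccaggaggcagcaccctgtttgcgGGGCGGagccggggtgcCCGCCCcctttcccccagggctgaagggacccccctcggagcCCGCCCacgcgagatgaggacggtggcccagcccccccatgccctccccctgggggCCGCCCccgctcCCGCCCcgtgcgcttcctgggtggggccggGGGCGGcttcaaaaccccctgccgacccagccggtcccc
The GC box occurred 5 times in the HBEGF window, 6 times in that of TGFB1 and 6 times in that of VEGFB, counting overlapping matches, and 42.6% of 35116 promoter windows of this length held at least 1. G and C made up 76.4%, 76.8% and 82.8% of the windows, compared with a median of 58.0% over all. The EGR1 motif GCGNGGGCG, whose end can overlap a GC box, was found 2 times for TGFB1, 1 time for VEGFB and 0 times for HBEGF, and in 8.41% of all windows. The AP-1 motif TGANTCA, present in 6.57% of windows, was in none of these 3. Of the HIF core sequences, ACGTG (18.5% of windows) was in none and GCGTG (32.2%) occurred 1 time each in TGFB1 and VEGFB. These matches describe the letters only.

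TEK, the main receptor of ANGPT1, was close to absent from these libraries. It had 5 counts over all 10 libraries. Of 7 genes listed for the angiopoietin pathway 4 could be tested, and ITGA5 was called lower in VENins, while 33 of all 16756 genes (0.197%) were called, 27 (0.161%) lower and 6 (0.0358%) higher. The 4 genes had a median log2 fold change of -0.60, against 0.00 over all tested genes. ITGA5, an integrin subunit of the fibronectin receptor that can also bind ANGPT1, was at 37.5, 42.4, 39.8, 38.2 and 41.1 CPM in VENsens lines 1 to 5, and at 18.3, 16.6, 25.3, 41.1 and 16.4 CPM in VENins lines 1 to 5. VENins line 4 was at the VENsens level and the other 4 lines were below it. The log2 fold change was -0.84 (SE 0.16), with an adjusted p = 0.0425 in edgeR's quasi-likelihood test, and the gene was no longer called in any fit without the lines numbered 1, 2, 3 or 5. Nor was it called without the line number as a term (adjusted p = 0.0602), by DESeq2 with or without that term (0.0616 and 0.0585) or among genes with at least 10 counts in every library. Because VENins line 4 was seen to stand apart, fold changes without the lines numbered 4 are given as a description of the other 4 lines of each group.

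TIE1, an orphan relative of TIE2 that modulates its signal, rested on 613 counts, at 2.91 to 3.78 CPM in VENsens and 0.695 to 2.79 CPM in VENins lines, without overlap. Its log2 fold change of -0.93 (SE 0.22) did not pass, with an adjusted p = 0.0877 in edgeR's quasi-likelihood test, and it is named after its values were seen. PTPRB, a phosphatase that acts on TIE2, was at 24.4 to 28.6 CPM in VENsens and 17.9 to 25.2 CPM in VENins lines (log2 fold change -0.37, SE 0.09). The adaptor DOK2, which TIE2 recruits, was at 3.77 to 4.38 CPM in VENsens and 3.85 to 6.93 CPM in VENins lines, and neither PTPRB nor DOK2 passed the test. DESeq2 called TIE1 and PTPRB with the line number (adjusted p = 0.0323 and 0.0344) and PTPRB without it (0.00648). Without the lines numbered 4 the log2 fold changes of TIE1, PTPRB and ITGA5 were -1.16 (SE 0.22), -0.48 (SE 0.09) and -1.09 (SE 0.10). These 3 were called lower in that fit, as were 1.5% of all tested genes. The fits without the lines numbered 1, 2, 3 or 5 called 0 genes of this list. Those fits called few genes at all, with 57 of 16776, 6 of 16770, 17 of 16739 and 9 of 16801.

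The receptors that HBEGF binds directly were at or near 0. EGFR had 0 counts in 10 libraries, which allows at most 0.0125 CPM, and ERBB4 had 10 counts in all. Their partner ERBB2, which binds no ligand itself, was at 127 to 133 CPM in VENsens and 125 to 148 CPM in VENins lines. The related ligands AREG, EREG, BTC, NRG1 and NRG3 also had 0 counts. In the list of 23 genes of the EGF family and of HBEGF shedding, 11 were tested and 0 were called by edgeR's quasi-likelihood test, with 3 of 11 at an unadjusted p under 0.05, against 16.2% of all tested genes. DESeq2 called 0 of the 9 genes to which it gave an adjusted p, with or without the line number, while it called 1.69% of all such genes with it and 6.05% without it. The list's median log2 fold change was 0.00, as over all tested genes.

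Proteases and partners of the HBEGF precursor were well covered by reads. ADAM10 was at 821 to 1027 CPM in VENsens and 725 to 841 CPM in VENins lines, with a log2 fold change of -0.17 (SE 0.07) that did not pass. CD9, a tetraspanin that associates with the HBEGF precursor, was at 219 to 265 CPM in VENsens and 209 to 266 CPM in VENins lines. CD44, whose heparan sulfate form can hold the precursor at the membrane, was at 35.6 to 43.6 CPM in VENsens and 27.1 to 41.2 CPM in VENins lines, with an adjusted p = 0.216 in edgeR's quasi-likelihood test, the smallest of this list. Without the lines numbered 4 its log2 fold change was -0.36 (SE 0.09), and it was called lower, as were 1.5% of all tested genes in that fit. Among the 5 fits that leave out a line number this was the only one to call a gene of the list. The fits without the lines numbered 1, 2, 3 or 5 called few genes at all, with 57, 6, 17 and 9.

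VEGF receptors were likewise sparse, with 8 counts of FLT1 and 2 of the ligand VEGFC over all libraries. KDR, the main signalling receptor of VEGFA, was at 2.82 to 3.87 CPM in VENsens and 2.27 to 3.10 CPM in VENins lines. PGF, a ligand of FLT1, was at 2.77 to 3.41 and 2.48 to 3.05 CPM. FLT4, the receptor of VEGFC, was at 2.33, 3.29, 3.06, 2.25 and 3.03 CPM in VENsens lines 1 to 5 and at 1.22, 1.59, 1.87, 3.38 and 1.39 CPM in VENins lines 1 to 5. VENins line 4 was the highest of the 10 lines and the other 4 VENins lines were the lowest. Of 8 listed genes 4 were tested and 0 called by edgeR's quasi-likelihood test, with 1 of 4 at an unadjusted p under 0.05, against 16.2% of all tested genes, and a median log2 fold change of -0.20. DESeq2 gave an adjusted p to 2 of them with the line number, PGF and KDR, and called neither, and to 0 of them without it, so the latter fit could call none. FLT4 had a log2 fold change of -0.60 (SE 0.22) over all lines and -0.94 (SE 0.18) without the lines numbered 4. It was called lower in that fit, as were 1.5% of all tested genes. The fits without the lines numbered 1, 2, 3 or 5 called 0 genes of this list, and 57, 6, 17 and 9 of all tested genes.

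TGF-beta receptors were expressed. TGFBR2, the receptor that binds TGFB1, was at 180.1 to 236 CPM in VENsens and 163 to 211 CPM in VENins lines. LTBP4, which tethers latent TGF-beta to the matrix, was at 98.1 to 103 CPM in VENsens lines, and at 79.1, 76.9, 78.4, 94.6 and 107 CPM in VENins lines 1 to 5. NRROS, a partner of latent TGFB1 on myeloid cells, was at 77.3 to 81.8 CPM in VENsens and 75.0 to 92.8 CPM in VENins lines. FURIN, the protease that cuts the TGFB1 precursor, was at 41.4 to 48.6 and 34.7 to 43.9 CPM, and its log2 fold change of -0.22 (SE 0.07) had an adjusted p = 0.146 in edgeR's quasi-likelihood test. Of 18 genes for ligands, activation and receptors 11 were tested, with a median log2 fold change of -0.12, and 0 were called by edgeR's quasi-likelihood test, with 4 of 11 at an unadjusted p under 0.05, against 16.2% of all tested genes. DESeq2 called 0 of the 10 with an adjusted p, with or without the line number, beside 1.69% and 6.05% of all such genes.

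SMAD proteins and their targets showed no common direction. SMAD2, which TGF-beta receptors phosphorylate, was at 131 to 137 CPM in VENsens and 128 to 145 CPM in VENins lines, and its partner SMAD4 was at 105 to 118 and 98.8 to 113 CPM. The cell cycle inhibitor CDKN1A, a target of SMAD proteins and of p53, was at 95.1 to 118 and 96.0 to 112 CPM. ID2, an inhibitor of E proteins that BMP signals induce, had the smallest p of the list. It was at 5.24, 6.10, 4.75, 5.63 and 4.55 CPM in VENsens lines 1 to 5 and at 10.8, 10.8, 7.57, 4.87 and 11.7 CPM in VENins lines 1 to 5. VENins line 4 was within the VENsens range and the other 4 were above it. ID2 had a log2 fold change of 0.76 (SE 0.16) with an adjusted p = 0.0666 in edgeR's quasi-likelihood test, and without the lines numbered 4 it was at 0.98 (SE 0.13). ID2 was called in that fit, which called 331 of all 16768 genes tested there. The fits without the lines numbered 1, 2, 3 or 5 called 0 SMAD genes, and 57, 6, 17 and 9 of all tested genes. Of 20 SMAD genes 17 were tested, with a median log2 fold change of 0.03 and 0 calls by edgeR's quasi-likelihood test. At an unadjusted p under 0.05 there were 3 of 17, close to the 16.2% of all tested genes. DESeq2 called ID2 alone, of 13 genes with an adjusted p with the line number and of 12 without it, beside 1.69% and 6.05% of all such genes.

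The HIF pathway, which controls VEGFA, was close to level. HIF1A was at 135 to 173 CPM in VENsens and 137 to 146 CPM in VENins lines, and the oxygen sensor EGLN1 was at 216 to 239 and 218 to 238 CPM. BNIP3L, a HIF target that marks mitochondria for removal, was at 182 to 225 and 186 to 252 CPM. NDRG1, another hypoxia-induced gene, was at 26.4, 33.3, 25.1, 28.1 and 26.6 CPM in VENsens lines 1 to 5 and at 22.1, 23.4, 22.4, 21.9 and 21.6 CPM in VENins lines 1 to 5. All VENins lines were below all VENsens lines. Its log2 fold change was -0.32 (SE 0.07), and its adjusted p = 0.0691 in edgeR's quasi-likelihood test was the smallest of the list. Of 20 HIF genes 17 were tested, with a median log2 fold change of -0.04 and 0 calls by edgeR's quasi-likelihood test, while 2 of 17 were at an unadjusted p under 0.05, against 16.2% of all tested genes. DESeq2 called 2, NDRG1 and VHL, of 16 genes with an adjusted p with the line number and of 15 without it, beside 1.69% and 6.05% of all such genes. VHL, which marks HIF proteins for degradation, was at 148 to 172 CPM in VENsens and 133 to 139 CPM in VENins lines, without overlap (log2 fold change -0.20, SE 0.05).

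Genes that respond to ERK, among them the feedback inhibitors that this kinase induces, were mostly below the VENsens mean in VENins lines, by least in line 4. Of 20 listed genes 17 were tested and 15 had a negative log2 fold change, with a median of -0.47 against 0.00 over all tested genes. None passed, with 0 calls by edgeR's quasi-likelihood test, although 11 of 17 were lower at an unadjusted p under 0.05, against 8.38% of all tested genes. Of 12 genes with an adjusted p, DESeq2 called 1 with the line number and 5 without it, beside 1.69% and 6.05% of all such genes. In VENins lines 1 to 5, 14, 16, 14, 12 and 13 of the 17 genes were below the VENsens mean, against 48.1% to 50.2% of all tested genes. Below every VENsens line were 12, 13, 11, 4 and 11 of the 17, against 22.5%, 24.9%, 22.3%, 19.3% and 26.5% of all tested genes, so the count in line 4 was near the share of all genes. By line, the median difference of these 17 genes from the VENsens mean was -0.53, -0.58, -0.24, -0.07 and -0.52 on the log2 scale in VENins lines 1 to 5, and 0.01 or less in size for all tested genes in each line. Without the lines numbered 4, edgeR's quasi-likelihood test called 7 of the 17 genes, all lower, while 1.5% of all tested genes were called lower in that fit. The fits without the lines numbered 1, 2, 3 or 5 called 0 of them. Those fits called few genes at all, with 57 of 16776, 6 of 16770, 17 of 16739 and 9 of 16801. Since line 4 was singled out by its values, the count of 7 describes the other 4 lines of each group.

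SPRY4, a Sprouty inhibitor of receptor tyrosine kinase signalling, was at 9.19, 6.44, 6.83, 6.85 and 8.30 CPM in VENsens lines 1 to 5 and at 2.40, 1.92, 3.99, 6.80 and 2.53 CPM in VENins lines 1 to 5. VENins line 4 lay within the VENsens range and the other 4 lines below it. SPRY4 had a log2 fold change of -1.16 (SE 0.22), with an adjusted p = 0.0509 in edgeR's quasi-likelihood test. It passed without the line number as a term (adjusted p = 0.0479), with RLE size factors (0.0451), library size alone (0.0373) or length and GC offsets (0.0378), with no filter on low counts and by DESeq2 with and without the line number (0.0413 and 0.0334). It did not pass among genes with at least 10 counts in every library or without the lines numbered 1, 2, 3 or 5, and its highest adjusted p was 0.429, without the lines numbered 2. ETV5, an ETS transcription factor downstream of ERK, was at 70.8 to 90.9 CPM in VENsens lines, and at 51.4, 47.0, 68.6, 72.4 and 40.4 CPM in VENins lines 1 to 5 (log2 fold change -0.57, SE 0.12). SPRED2, an inhibitor of RAF activation, was at 42 to 46.3 CPM in VENsens lines and at 25.6, 28.4, 37.6, 45.3 and 27.6 CPM in VENins lines 1 to 5. SPRY2 was at 77.0 to 87.1 CPM in VENsens and 61.1 to 81.5 CPM in VENins lines. In each of these 4 genes VENins line 4 was the highest VENins line.

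The ERK phosphatase DUSP6, named after its values were seen, differed widely among VENins lines. It was at 32.4, 31.6, 37.2, 34.6 and 41.4 CPM in VENsens lines 1 to 5 and at 11.1, 12.2, 27.3, 46.3 and 11.5 CPM in VENins lines 1 to 5. VENins line 4 was the highest of all 10 lines, and the other 4 VENins lines were below every VENsens line. The log2 fold change was -0.91 (SE 0.23) over all lines and -1.27 (SE 0.15) without the lines numbered 4, and edgeR's quasi-likelihood test over all lines gave an adjusted p = 0.0974. EGR1, an immediate early transcription factor also named after its values were seen, was at 4.68 to 6.54 CPM in VENsens and 3.22 to 4.32 CPM in VENins lines, without overlap. In comparison, HBEGF and ANGPT1 in VENins line 4 were 0.41 and 0.62 below the VENsens mean on the log2 scale, a smaller distance than in any other VENins line.

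**Figure D3:**
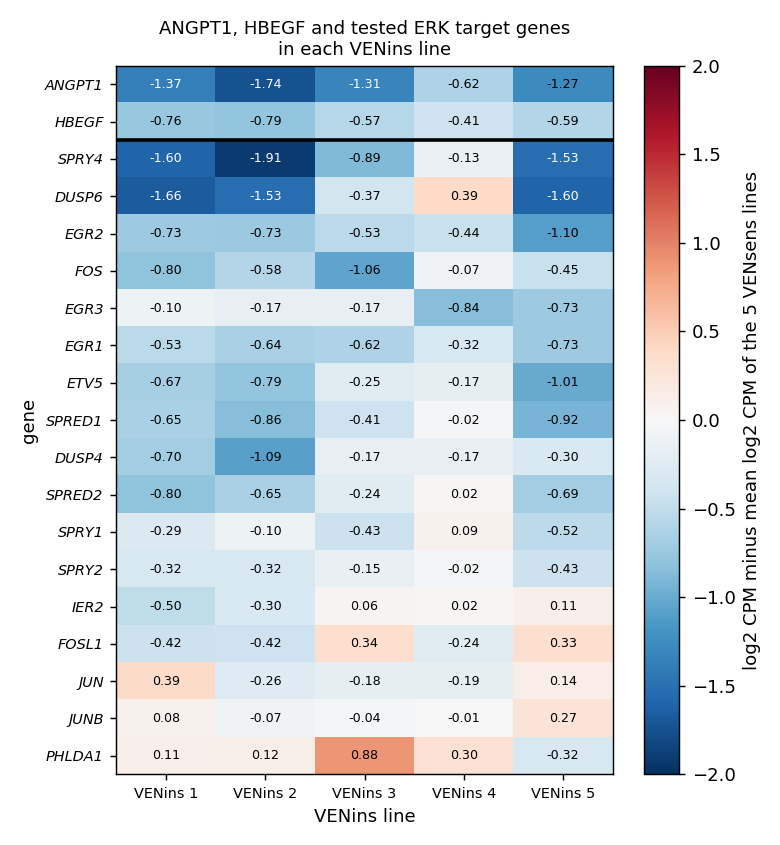
Difference of log2 CPM from the mean of the 5 VENsens lines (colour and number) for ANGPT1 and HBEGF, above the line, and for the 17 tested ERK target genes, by VENins line. Most genes from SPRY4 to SPRY2 are negative in lines 1, 2, 3 and 5, whereas line 4 is near 0 for many of them and at 0.39 for DUSP6.

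Of 43 other secreted growth factor genes 13 had enough counts to be tested, and 6 had 0 counts. HDGF, a heparin-binding factor that is mostly nuclear, was at 586 to 663 CPM in VENsens and 646 to 675 CPM in VENins lines. CTGF, a matricellular protein known for its high expression in B-cell precursor leukemia, was at 604 to 633 CPM in VENsens and 549 to 618 CPM in VENins lines (log2 fold change -0.10, SE 0.05). GDF11, of the TGF-beta family, was at 57.9 to 66.9 and 54.0 to 61.7 CPM. BMP8B of the same family had the smallest p of the list, at 23.4 to 29 CPM in VENsens and 19.6 to 22.1 CPM in VENins lines without overlap, with an adjusted p = 0.123 in edgeR's quasi-likelihood test. The median log2 fold change was -0.02, and edgeR's quasi-likelihood test called 0 of the 13, with 2 of 13 at an unadjusted p under 0.05, against 16.2% of all tested genes. DESeq2 called 0 of 9 genes with an adjusted p with the line number, and BMP8B of 8 without it, beside 1.69% and 6.05% of all such genes.

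**Figure D4:**
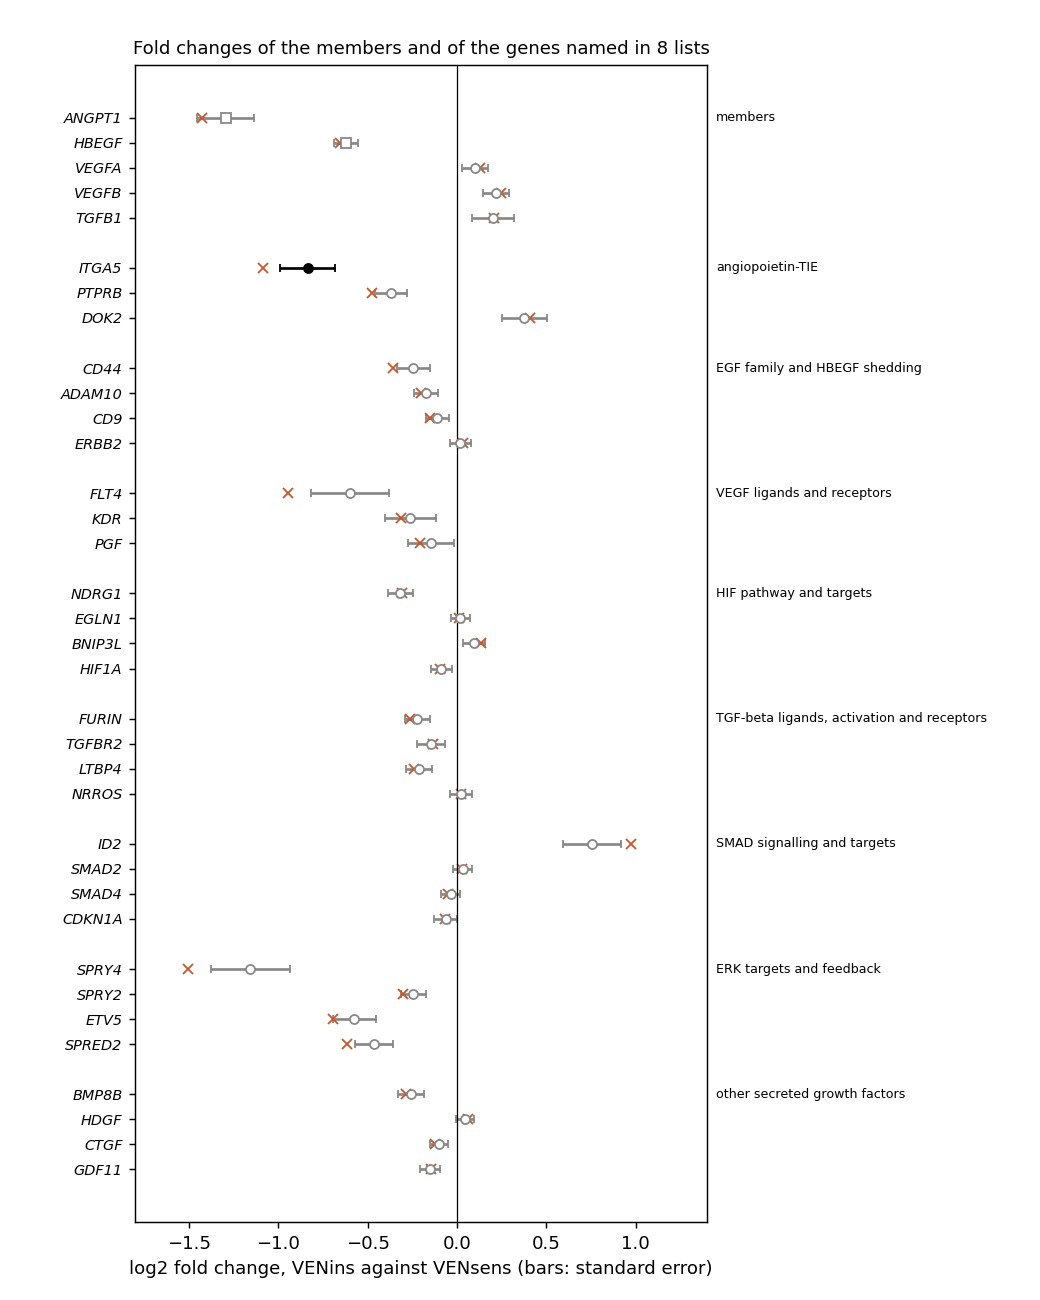
Log2 fold change of VENins against VENsens (horizontal axis, bars for 1 SE) for the 5 genes and for the genes named by rule in 8 lists, with a filled symbol for a call at an adjusted p under 0.05, squares for the 2 genes selected on this contrast and crosses for the value without the lines numbered 4. ITGA5 is the filled symbol. The crosses of ITGA5, PTPRB, CD44, FLT4, ID2 and SPRY4 are among those that lie farther from 0 than their bars.

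The genes with the profiles most like those of ANGPT1 and HBEGF were sought among 11137 other protein-coding genes with a mean of at least 1 CPM, by the root-mean-square difference of log2 CPM centred on each gene's mean over the 10 libraries. For ANGPT1 they were SPRY4 with a difference of 0.28, ITGB5 with 0.31 and ADAM19 with 0.31, against a median of 0.71 over all compared genes. ITGB5, an integrin subunit of a vitronectin receptor, was at 16.8 to 18.4 CPM in VENsens and 6.39 to 11.0 CPM in VENins lines. ADAM19, a metalloprotease, was at 1.44 to 2.37 and 0.695 to 1.57 CPM. For HBEGF they were ARHGAP42, GNL3L and CBLB, with differences of 0.11, 0.12 and 0.12 against a median of 0.35. CBLB, a ubiquitin ligase that targets activated receptors, was at 54.2 to 64.5 CPM in VENsens and 37.5 to 48.8 CPM in VENins lines. A profile near that of a gene selected on this contrast is also lower in VENins lines by construction, so no test is given for these genes.

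Genes next to the 5 were compared as well. Within 1 Mb of the start of ANGPT1, 4 genes were tested, with log2 fold changes between 0.05 and 0.16. Around HBEGF 39 genes were tested, with a median of 0.03, and 18 were lower. Within 1 Mb of VEGFA, 46 genes were tested with a median of -0.02, and ZNF318 was called lower with a log2 fold change of -0.36 (SE 0.06) and an adjusted p = 0.0321 in edgeR's quasi-likelihood test. The medians were 0.04 over 59 genes around VEGFB and 0.05 over 47 genes around TGFB1. Around ANGPT1, HBEGF, VEGFB and TGFB1 together edgeR's quasi-likelihood test called 0 genes. At an unadjusted p under 0.05 were 0 of 4 genes around ANGPT1, 3 of 39 around HBEGF, 6 of 46 around VEGFA, 10 of 59 around VEGFB and 8 of 47 around TGFB1, beside 16.2% of all tested genes.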

How the data were processed

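RNA-Seq of 10 RS4;11 lines was analysed, 5 VENins and 5 VENsens with 1 library each, grouped by their titles. The files deposited by the authors hold raw counts of single-end reads per Ensembl gene, per the labels made with bcl2fastq 2.20.0.422, Bowtie2 2.3.5.1, SAMtools 1.9 and HTSeq 0.9.1 on hg19. Between 45.8% and 47.3% of reads in each file were not counted on a gene, and these summary lines were left out. Of 130 coding genes in the MHC region of chromosome 6, 108 were at 0 in all libraries, so a count of 0 there, as for IER3, is not a measure of expression.

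The fit used edgeR 4.0.16 in R 4.3.3 (filterByExpr with minimum count 10 and minimum total 15, TMM, quasi-likelihood F test, line number and group as terms, since the study's methods describe paired testing) and DESeq2 1.42.0. p-values were adjusted by Benjamini-Hochberg over the 16756 genes that passed the filter (threshold 0.05), and SEs follow from the F value. A prior count of 2 entered log2 CPM. Names, positions and lengths came from GENCODE 29 (GRCh38) by identifier, and plots from Python 3.11.15 and matplotlib 3.10.9. The edgeR step was tested on simulated data.

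The members and the 8 lists were chosen with earlier results of these data known. In each list, called genes, the 3 with the highest mean CPM and the smallest p were named, and genes with under 10 counts could be named as near 0. TIE1, DUSP6, EGR1, ERBB4, ZNF318, VHL, DNTT, ITGA2B, GP1BA and the pro-B markers with fold changes were named after their values were seen. Alternatives were no term for the line number, DESeq2, RLE size factors, library size alone, 2 other filters, offsets for length and GC content, each line number left out, exact permutation tests and other lengths.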

Additional observations from a re-analysis of the deposited data

Results flagged for a closer look

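Dixon's gap was examined in 124 groups of 5 lines, for 62 genes with values in the text and at least 10 counts. A line stood far from the others in 4 groups, where chance gives about 1 in 20, or 6.2 groups. In number the 4 groups are no more than chance gives for 124 independent groups, which settles nothing about any single group. The groups share lines, and some of the genes were named after their values were seen, so the count is a description. ARHGAP42, near HBEGF in profile, was at 6.13 CPM in VENins line 4 and at 4.50 to 4.80 CPM in the other 4 VENins lines. DNTT, a lymphoid marker, was at 27.3 CPM in VENins line 4 and at 1.08 to 3.38 CPM in the other 4. In VENins line 5, IGLL1 was at 899 CPM, against 705 to 747 CPM in the other 4, and HNRNPUL1, opposite TGFB1, was at 551 CPM, against 493 to 508 CPM. The part of line 4 in the differences between the groups is given by the values without the lines numbered 4.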

How the results depend on the processing

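Over 13 alternatives the log2 fold changes of ANGPT1 were -1.42 to -1.22 and those of HBEGF -0.66 to -0.58. Both genes were selected on their lower counts in these same lines, so their kept direction is a description and no support. The log2 fold changes of VEGFA (0.02 to 0.19) and TGFB1 (0.04 to 0.31) kept their direction in 14 alternatives without passing the threshold. VEGFB was at 0.15 to 0.28 and passed in 2 of 14, at 0.22 with no filter on low counts (adjusted p = 0.0459 in edgeR's quasi-likelihood test) and at 0.22 in the two-sided exact permutation test (unadjusted p = 0.0317).

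The counts of calls moved. Of all genes 33 were called. With no replicate block 149 were called, with DESeq2 217 with the block and 739 without it, with no filter 664, and with length and GC offsets with the block 155. Leaving out 1 line number gave 6 to 331, with 57, 6, 17, 331 and 9 without lines 1 to 5. Replicate numbers did not pair the samples: deviations of same-numbered lines correlated at -0.10, 0.03, -0.02, 0.01 and -0.08 over 16756 genes. No line correlated best with its own number. The main fit kept the line number as a term all the same. Without it, edgeR's quasi-likelihood test called EGR1, SPRY4, ETV5, NDRG1 and ID2 (adjusted p = 0.0382 to 0.0492). The same test then no longer called ITGA5 (adjusted p = 0.0602).

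In the ERK list (0 called) the counts were 3 with no replicate block, 1 with DESeq2 with the block and 5 without it, 1 with RLE size factors, 1 with library size alone, 10 with no filter, 3 with length and GC offsets, and 0 to 7 leaving out 1 line number. In the angiopoietin list (1 called) they were 0 with no replicate block, 2 with DESeq2 with the block (TIE1 and PTPRB, without ITGA5, the gene otherwise called) and 1 without it (PTPRB), 3 with no filter, 0 with at least 10 counts in every library, and 0 to 3 leaving out 1 line number. In the SMAD list (0 called) they were 1 with no replicate block, 1 with DESeq2 with the block and 1 without it, 2 with no filter, 1 with length and GC offsets, and 0 to 2 leaving out 1 line number. In the HIF list (0 called) they were 1 with no replicate block, 2 with DESeq2 with the block and 2 without it, and 1 with no filter. With no filter 1 gene was called in each of the EGF, VEGF and TGF-beta lists (0 called), and leaving out 1 line number gave 0 to 1 in the EGF and VEGF lists. DESeq2 without the block called 1 other secreted factor (0 called). The cause of these moves was not tested. By the longest coding transcript, chosen after seeing the data, 3 of the 5 genes kept their place in the order per length.

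ANGPT1, TIE1, KDR and FLT4 rest on few counts per library, and DESeq2 gave no adjusted p for ANGPT1, FLT4 and, without the block, TIE1 and KDR, so it could not call them.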
